A study of Mus musculus with 34 samples.

Results

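The integrated stress response is read out here from 10 genes that are widely used to follow it: Atf4, Ddit3, Atf3, Trib3, Chac1, Asns, Sesn2, Psat1, Phgdh and Slc7a11. They were taken by gene name from an expression table of 52661 genes, and all 10 were found in it. In this pathway, cellular stresses are sensed by kinases that phosphorylate the translation factor eIF2alpha, which lowers protein synthesis in general while the mRNA of the transcription factor ATF4 is translated more. ATF4 then switches on genes for amino acid synthesis and uptake and for redox balance, and under lasting stress it acts with CHOP, the product of Ddit3. These steps begin at translation and protein modification, neither of which is measured by RNA-seq, so the values below describe mRNA only.

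The cells were N2A, a mouse neuroblastoma line, and the libraries came from a study of small molecules that change the splicing of microexons, very short neural exons. All cells received 0.4% DMSO for 24 h, alone in 3 control libraries (A, B and C) and together with 1 of 27 compounds in 31 others, and polyA+ RNA was sequenced. The 4 inhibitors of histone deacetylases (HDACs) had 2 libraries each, namely Vorinostat (2.5 µM), CI-994 (5 µM), BRD4884 (10 µM) and BRD6688 (10 µM), and each of the 23 other compounds had 1 library. The study classes 17 compounds as activators and 10 as inhibitors of microexons.

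Among the single-library activators were the kinase inhibitors A-443654 (0.25 µM, against AKT1), NVP-AEW-541 (1 µM, IGF1R), GNF-5837 (0.5 µM, TRK), Trametinib (1 µM, MEK), SCH-772984 (2 µM, ERK) and Crenolanib (2 µM, PDGFR). The other activators were screening compounds without a known target: BTB12021 (20 µM), BTB13120 (0.625 µM), BTBS00065 (2.5 µM), RDR00572 (2.5 µM), RH01954 (2.5 µM), S02045 (5 µM) and SEW06315 (2.5 µM). The microexon inhibitors were the DNA methyltransferase inhibitor 5-azacytidine (5 µM), the WEE1 inhibitor MK-1775 (2 µM) and screening compounds without a known target. These were AW00693 (5 µM), JFD00822 (5 µM), SPB00858 (20 µM), and ChemBridge 7678804, T5635931, T5758020, T5963258 and T5985871 at 6.7 µM each. The study calls the libraries of DMSO and of the HDAC inhibitors biological replicates, but neither it nor the labels say that they came from separate cultures, so p-values measure the spread between these libraries, which may be technical. The line's labels were in keeping with its markers in part: of 10 neuroblastoma and neuron markers, Tubb3 (396 RPKM), Hand2 (248 RPKM) and Stmn2 (175 RPKM) were high in DMSO, whereas Nefl and Nefm were at 0.01 RPKM.

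Each gene was read in 2 ways. The first was the RPKM of a condition, 1 value per condition with replicates merged, compared with DMSO as a log2 ratio with 0.5 RPKM added to both, and called when it passed 2-fold and at least 1 of the 2 conditions exceeded 5 RPKM. No spread can be given for it. The second was the number of reads across exon-exon junctions of the gene in each library, scaled to 1000000 such reads in the library (RPM, which takes no account of gene length), which gives the spread between libraries and a test (limma, Benjamini-Hochberg adjusted over 11637 genes, called below 0.05). It covers 9 of the 10 genes, since no intron is listed for Phgdh. Libraries held 17702718 to 40613524 junction reads. For a compound with 1 library the test assumes that this library varies as the replicated ones do.

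The promoters of 4 of the 10 genes hold the core of the amino acid response element, the site through which ATF4 and its partners act on target genes. The core was searched as TGATGNAA on both strands in the 250 bases before each RefSeq start (GRCm38.p6), where 3.45% of 32841 promoters hold it, and 11 promoters of the 10 genes were examined. The windows below are shown because these 4 genes did not respond alike to the compounds. They are written 5′ to 3′ along the gene, with the core in capitals, at chr1:191183424-191183455 (minus strand), chr2:119351037-119351068 (plus strand), chr6:7693213-7693244 (minus strand), chr3:50443660-50443691 and chr3:50443641-50443672 (both minus strand), in that order.
Atf3, core 110 bases before the start: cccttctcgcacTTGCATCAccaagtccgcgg
Chac1, core 193 bases before the start: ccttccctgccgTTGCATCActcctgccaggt
Asns, core 23 bases before the start: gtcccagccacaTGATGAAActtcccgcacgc
Slc7a11, core 66 bases before the start: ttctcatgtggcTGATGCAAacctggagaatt
Slc7a11, core 47 bases before the start: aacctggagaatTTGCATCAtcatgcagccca

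Atf3, Chac1 and the second Slc7a11 core carry the same 8 letters, TTGCATCA, which is the reverse complement of the first Slc7a11 core. No match was found in the windows of Atf4, Ddit3, Trib3, Sesn2, Psat1 and Phgdh, which says only that these letters are not in those windows. The core of the antioxidant response element, TGACNNNGC, the site bound by NRF2, was found before Phgdh, Sesn2 and Asns (3 of 11 promoters, against 10.2% of all), and the ER stress response element, CCAAT and CCACG separated by 9 bases, before none of them (0.113% of all). A match is a description of letters and not evidence of binding.

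In untreated N2A cells the metabolic members of the pathway were already abundant. Per length of transcript, Asns, which makes asparagine, stood at 548 RPKM in DMSO, Psat1 at 357, Atf4 at 309 and Phgdh at 183. Psat1 and Phgdh catalyse steps of serine synthesis from a glycolytic intermediate. Chac1, an enzyme that breaks down glutathione, was at 35.6 RPKM, Ddit3 at 26.7, Sesn2, a sestrin that restrains mTORC1, at 22.4, and Trib3, a pseudokinase that damps the response, at 18.1. The stress transcription factor Atf3 (4.37 RPKM) and the cystine transporter Slc7a11 (4.84 RPKM) were below 5 RPKM, so in the RPKM comparison they could pass the filter only where a compound raised them, and their calls are not comparable with those of the other 8.

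Across the 27 compounds the genes spanned very different ranges. Trib3 ran from 5.91 RPKM with BRD6688 to 88.2 with SEW06315, Slc7a11 from 1.65 with Vorinostat to 26.98 with SEW06315, and Ddit3 from 15.04 with BRD6688 to 140 with SEW06315. Asns moved least, from 322 RPKM with Vorinostat to 731 with SEW06315, and was called with no compound, as was Sesn2 (11.3 to 42.8 RPKM). The highest value of 9 of the 10 genes was in SEW06315, and the exception was Psat1, which was highest with T5985871 (426 RPKM). Of the 270 pairs of a gene and a compound, 15 were past 2-fold higher, 18 were past 2-fold lower, 211 were within 2-fold and 26 did not exceed 5 RPKM in either condition. Of the 15 higher pairs, 3 were of Atf3 and 4 of Slc7a11, which could be called only upward. Over all genes tested, 0.377% to 10.4% were higher and 0.325% to 26.1% lower, depending on the compound. Only SEW06315 had 3 or more of the genes higher, and only BRD6688, CI-994 and Vorinostat had 3 or more lower.

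**Figure D1:**
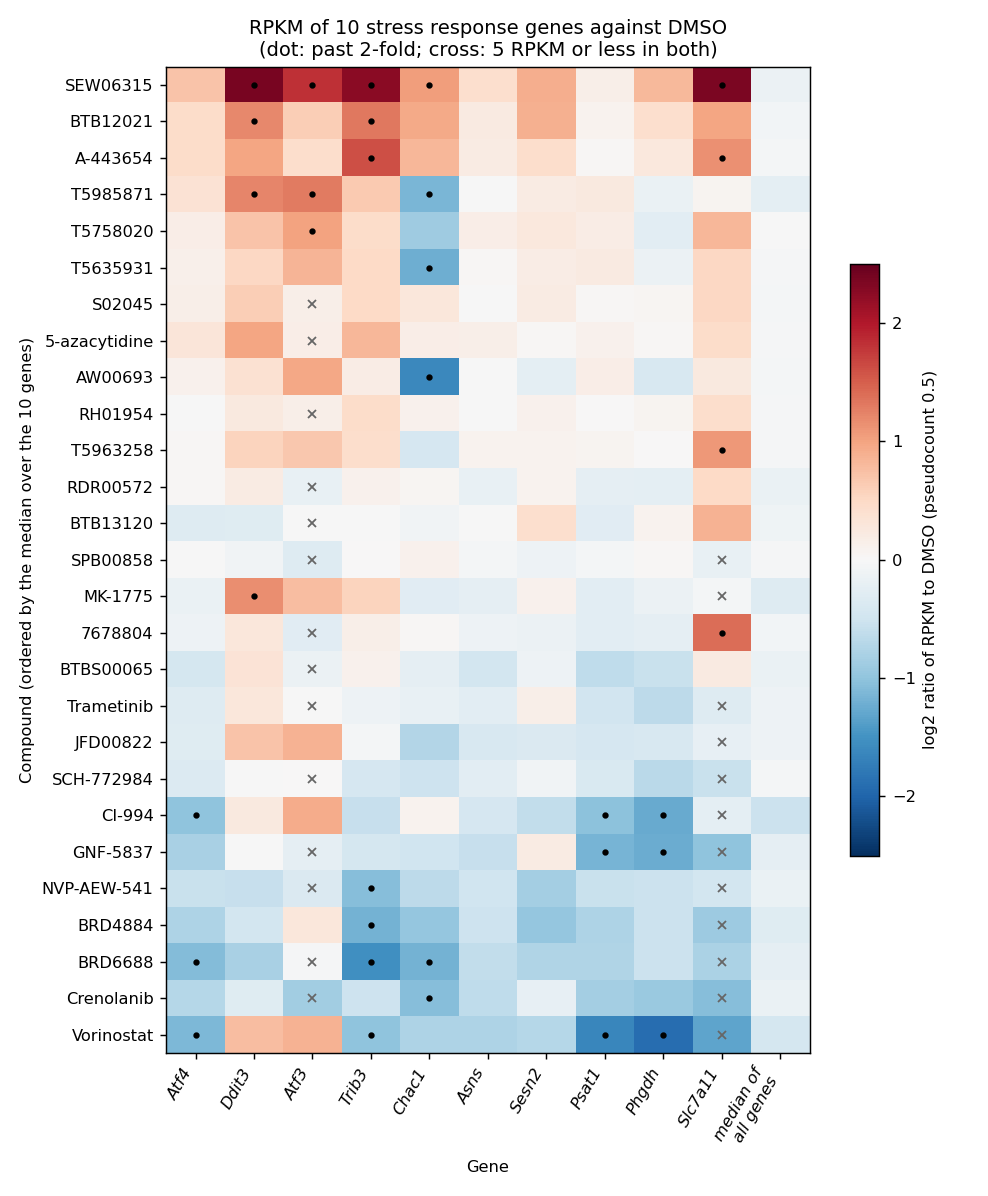
Log2 ratio of RPKM to DMSO (colour) for the 10 genes (columns) and 27 compounds (rows, ordered by the median over the 10 genes), with 1 merged value per condition. Dots mark the 33 pairs past 2-fold, crosses the 26 pairs at 5 RPKM or less in both conditions, and the last column the median of all genes above 5 RPKM in DMSO, which was below 0 for every compound and lowest for CI-994 (-0.53).

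SEW06315, an activator without a known target, gave the broadest increase. Ddit3 was 5.18-fold higher than in DMSO by RPKM, Slc7a11 5.15-fold, Trib3 4.77-fold, Atf3 3.55-fold and Chac1 2.06-fold, so 5 of the 10 genes were past 2-fold, where 1.89% of the genes tested were called higher. The other 5 were higher without passing 2-fold, from Psat1 (398 against 357 RPKM) to Sesn2 (42.8 against 22.4 RPKM). Slc7a11 and Atf3 were below 5 RPKM in DMSO, so they could be called only upward. The calls that could have gone either way were those of Ddit3, Trib3 and Chac1. By the junction test 8 of 9 genes rose, where 5.29% of all genes did, and the median of the 9 was 1.09 on the log2 scale against -0.04 for all genes tested.

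Ddit3 changed most of the 9 genes. It had 28.1, 28.4 and 24.2 junction RPM in DMSO A, B and C and 184 with SEW06315, a log2 fold change of 2.75 ± 0.17 (SE, limma adjusted p = 6.89e-07). Atf3 had 6.65, 4.56 and 5.45 in DMSO and 28.1 with the compound, a change of 2.26 ± 0.20 (adjusted p = 8.05e-06 by limma). For both genes the treated library lay far outside the DMSO range, and Atf4, the factor upstream of them, changed less: it had 344, 352 and 339 junction RPM in DMSO and 579 with SEW06315, a log2 change of 0.75 ± 0.10 (limma adjusted p = 4.66e-04). Trib3 had 30.1, 28.7 and 23.5 in DMSO and 138 with SEW06315 (2.32 ± 0.19 on the log2 scale, limma adjusted p = 4.07e-06).

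Among the effectors, Slc7a11 rose most: 8.64, 11.6 and 10.3 junction RPM in DMSO became 60.3, a log2 change of 2.52 ± 0.19 (limma adjusted p = 3.35e-06). Sesn2 and Chac1 rose less, with log2 changes of 1.09 ± 0.12 and 1.07 ± 0.14, and Asns rose by 0.54 ± 0.08. The call of Asns was lost when only the intron with the most reads was used (0.45 on the log2 scale). Psat1 was the exception, at 1076 junction RPM against 877 to 926 in DMSO (log2 change 0.25, limma adjusted p = 0.0625). The smallest 2 changes were thus in Psat1 and Asns, which were the most abundant of the 10 genes per length in DMSO.

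**Figure D2:**
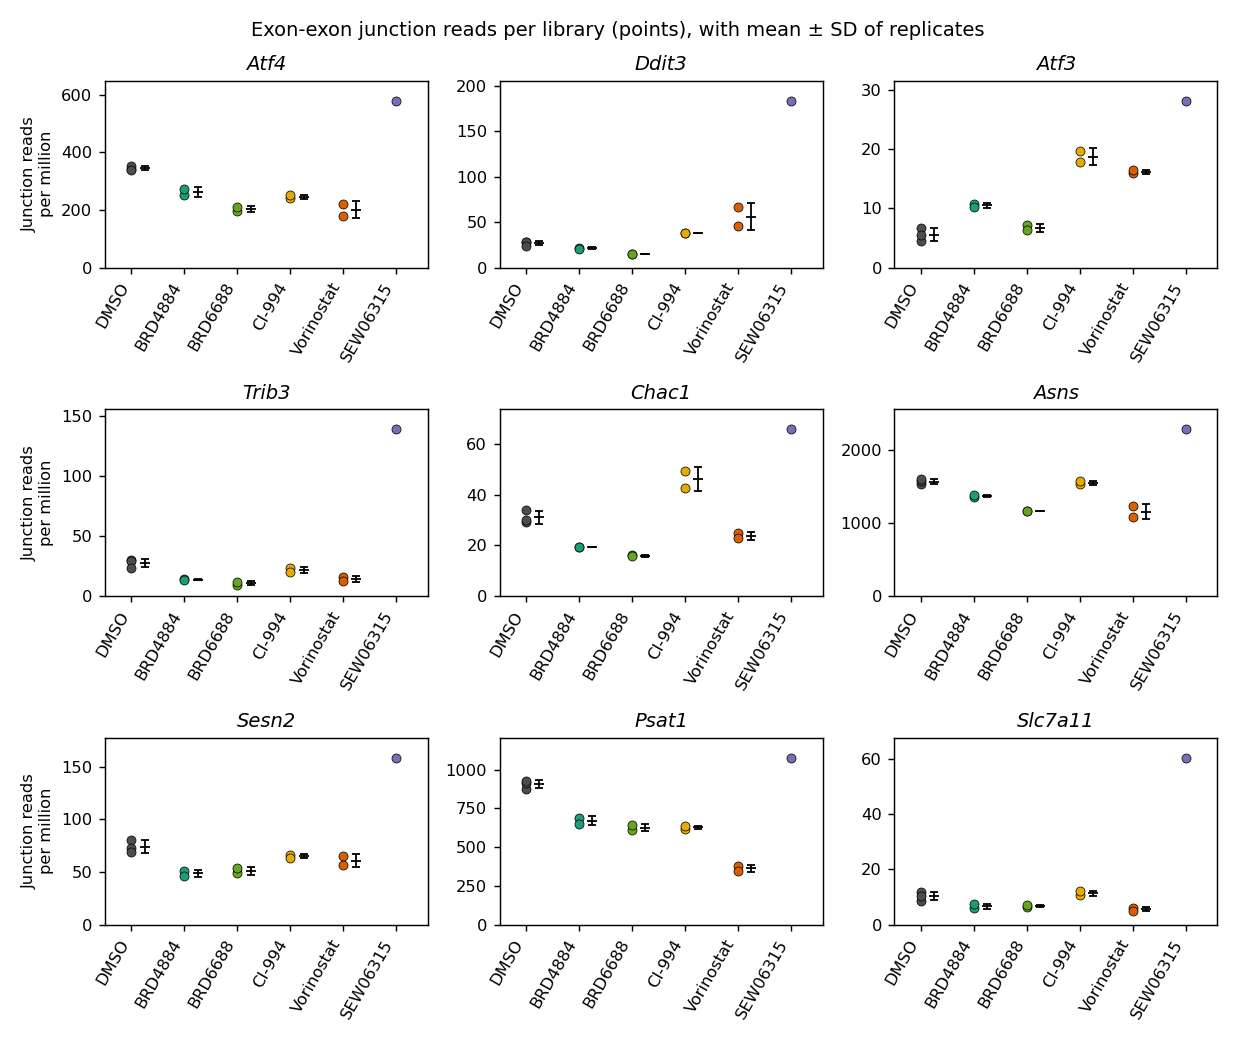
Exon-exon junction RPM (y axis, from 0) in each library of DMSO, the 4 HDAC inhibitors and SEW06315 for the 9 genes with listed introns, with the mean ± SD of replicates beside the points (n = 3 for DMSO, 2 for each HDAC inhibitor). The single SEW06315 library lies above all DMSO libraries for each of the 9 genes, and Psat1 in all 8 HDAC inhibitor libraries lies below them.

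The wider pathway moved with these genes under SEW06315. In a list of 22 other targets of ATF4 and CHOP, 16 could be tested by junction reads, of which 11 rose and 1 fell (median 0.93 on the log2 scale). By RPKM the farthest 2 of that list were Fam129a, also known as Niban, at 17.3 RPKM against 1.51 in DMSO, and Cdsn, at 6.20 against 0.37. Both were below 5 RPKM in DMSO, so by RPKM they could be called only upward. The member that fell was Cbs, an enzyme of cysteine synthesis (log2 junction change -0.83). Cth, the enzyme that acts after Cbs in that route, rose (2.68). Of 9 amino acid transporters 8 rose, led by RPKM by the glycine transporter Slc6a9 (46.0 against 15.1 RPKM) and the cationic amino acid transporter Slc7a3 (95.4 against 36.5). Among 8 genes of serine, one-carbon and proline synthesis 5 rose and none fell by this limma test (5.29% and 4.67% of all genes rose and fell), led by Aldh1l2 (75.7 against 21.6 RPKM) and Pycr1 (83.3 against 35.9).

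Genes around eIF2alpha itself were read in the same way with SEW06315. The list held 9 genes for eIF2alpha kinases, phosphatase subunits, and subunits of eIF2 and eIF2B. Of the 8 tested, 1 rose and 1 fell by junction reads, where 5.29% of all genes rose and 4.67% fell. The same shares of all genes apply to the lists that follow. Ppp1r15a, the stress-induced phosphatase subunit GADD34 that reverses the phosphorylation of eIF2alpha, was at 84.5 RPKM against 16.3 in DMSO (log2 junction change 2.28). Eif2ak1, the heme-regulated kinase, fell by 0.42 on the log2 scale. The mRNAs of the other 3 eIF2alpha kinases did not pass the test, with changes of 0.05 to 0.19. The other arms of the unfolded protein response were mixed, with 5 of 17 genes higher and 3 lower. Atf6 (28.02 against 13.7 RPKM) was the only one past 2-fold by RPKM, while the ER chaperone Hspa5, its classical reporter, had a log2 junction change of -0.01. Of 8 NRF2 targets 2 rose, Hmox1 by 0.74 and Srxn1 by 0.73, and of 9 p53 targets 1 rose, Cdkn1a (28.1 against 11.6 RPKM).

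BTB12021 and A-443654 gave the next broadest increases, each with 7 of 9 genes higher by junction reads and none lower, where 3.21% and 6.13% of all genes were called higher. With each compound Asns and Psat1 were the 2 that did not pass, with log2 changes of 0.27 and 0.16 for BTB12021 and of 0.24 and 0.05 for A-443654, and both compounds are compared with the same DMSO libraries. With A-443654, Trib3 was at 56.2 RPKM (3.05-fold) and Slc7a11 at 11.2 RPKM (2.20-fold), where 1.48% of genes tested were past 2-fold higher. With BTB12021, Trib3 was at 46.0 RPKM and Ddit3 at 61.7 RPKM (2.29-fold), where 0.895% were. The doses of these compounds and SEW06315 differ. The log2 change of Atf4 with A-443654 (0.42) lost its call without DMSO A or DMSO C. When only the intron with the most reads was used, Atf3 and Atf4 lost their calls with BTB12021, and Atf3 and Sesn2 with A-443654.

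With MK-1775, 4 of the 9 genes rose (14.3% of all genes were higher): Ddit3 by 1.58 ± 0.17, Atf3 by 1.46 ± 0.20, Trib3 by 0.95 ± 0.19 and Sesn2 by 0.57 ± 0.12 on the log2 scale, while Atf4 (0.21) and Asns (0.09) did not pass the limma test. The calls of Trib3 and Sesn2 with MK-1775 were lost when only the intron with the most reads was used. Ddit3 was at 60.6 RPKM with MK-1775, 2.25-fold above DMSO, where 2.35% of genes tested were past 2-fold higher. With 5-azacytidine 3 of 9 were higher (1.83% of all genes), namely Ddit3 (1.19 ± 0.17), Trib3 (0.94 ± 0.19) and Atf4 (0.52 ± 0.10), and all 3 calls were lost when only the intron with the most reads was used. BTBS00065 had Psat1 (-0.48) and Asns (-0.29) lower and Ddit3 higher (0.49), where 6.81% of all genes fell and 18.8% rose. Trametinib had Psat1 lower (-0.36) and Ddit3 (0.53) and Sesn2 (0.44) higher, where 7.76% fell and 11.5% rose, and SCH-772984 had Chac1 (-0.49) and Psat1 (-0.32) lower, where 2.98% fell. The calls of Ddit3 with BTBS00065 and Trametinib and of Chac1 with SCH-772984 were lost when any 1 of the DMSO libraries was left out, and those of Sesn2 with Trametinib and Psat1 with SCH-772984 without DMSO B or DMSO C. SPB00858, RH01954, S02045 and RDR00572 had no call among the 9 genes, which does not show that the genes were unchanged. For SPB00858 and RH01954 the lack of calls holds for all 11637 genes by limma (0 called at an adjusted p below 0.05, with 642 and 985 at an unadjusted p below 0.05). The median log2 change of the 9 genes was 0.42 with RDR00572 and 0.40 with S02045, against 0 for all genes with each. It was 0.175 with RH01954 and -0.028 with SPB00858, against -0.011 and 0.005 for all genes.

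With 3 of the 4 HDAC inhibitors, Vorinostat, BRD4884 and BRD6688, most of these genes fell, and with CI-994 as many rose as fell by junction reads. The median of all genes moved as well, by -0.22 to -0.53 on the log2 scale of RPKM and by 0.13 to 0.20 on that of junction reads, so small differences depend on the scale. By RPKM, 4 of the 10 genes were past 2-fold lower with Vorinostat (22.5% of genes tested were lower), 3 with CI-994 (26.1%), 3 with BRD6688 (6.75%) and 1 with BRD4884 (4.42%), and none was higher. Measured against the median of all genes instead, the median of the 10 genes was -0.45 with Vorinostat, -0.55 with BRD6688, -0.47 with BRD4884 and 0.04 with CI-994. By junction reads, 7 of 9 genes fell with Vorinostat (33.1% of all genes), 8 with BRD6688 (23.7%), 7 with BRD4884 (19%) and 3 with CI-994 (34.1%), the last a share near that of all genes. Rises among the 9 numbered 2 with Vorinostat (43.6% of all genes), 0 with BRD6688 (39.4%), 1 with BRD4884 (42.7%) and 3 with CI-994 (43.8%), of which that with CI-994 was closest to the share of all genes. The median of the 9 was -0.44 with Vorinostat, -0.56 with BRD6688, -0.43 with BRD4884 and -0.01 with CI-994.

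Atf4 and Psat1 fell with all 4, and Phgdh was lower. Atf4 had 345 ± 6.44 junction RPM in DMSO (SD, n = 3), 252 and 274 with BRD4884, 197 and 210.0 with BRD6688, 241 and 251 with CI-994 and 221 and 179 with Vorinostat. Psat1 had 905 ± 25.5 in DMSO and 671 ± 27.9, 624 ± 22.9, 627 ± 12.7 and 362 ± 23.8 in the same order. No library of an HDAC inhibitor reached the lowest DMSO library for either gene, and the limma adjusted p ranged from 3.41e-10 (Psat1 with Vorinostat) to 9.27e-04 (Atf4 with BRD4884). Phgdh, read by RPKM alone, was at 183 in DMSO, 126 with BRD4884, 127 with BRD6688, 76.0 with CI-994 and 48.6 with Vorinostat, a 3.75-fold difference for the last.

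A list of 8 further genes of serine, one-carbon and proline synthesis moved mostly in the same direction. By junction reads 8 fell with Vorinostat and 7 with each of the other 3 inhibitors, and none rose. Of all genes, 33.1% fell with Vorinostat, 34.1% with CI-994, 23.7% with BRD6688 and 19% with BRD4884. The medians of the list were -1.86 (Vorinostat), -1.42 (CI-994), -1.11 (BRD6688) and -0.81 (BRD4884) on the log2 scale. With Vorinostat the largest 2 differences in RPKM were in Mthfd1l, of mitochondrial one-carbon metabolism (5.54 against 64.0 RPKM in DMSO), and Shmt1, the cytosolic serine hydroxymethyltransferase (3.93 against 36.2). With CI-994 they were Shmt1 (3.83) and Mthfd1l (11.7). With BRD4884 they were Aldh1l2 (5.10 against 21.6) and Mthfd1l (19.05), and with BRD6688 Psph, the last enzyme of serine synthesis (34.2 against 93.1), and Mthfd1l (23.4). GNF-5837, a kinase inhibitor, was the only compound outside this class with Psat1 (160 RPKM) and Phgdh (77.7 RPKM) both past 2-fold lower, where 5.70% of genes tested were lower. Falls in the list of 8 were not particular to HDAC inhibitors. By junction reads 5 of the 8 fell with each of Crenolanib, NVP-AEW-541, GNF-5837 and AW00693, and 1 rose with each of the last 2. Of all genes 9.45%, 5.62%, 15.9% and 19% fell in that order.

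**Figure D3:**
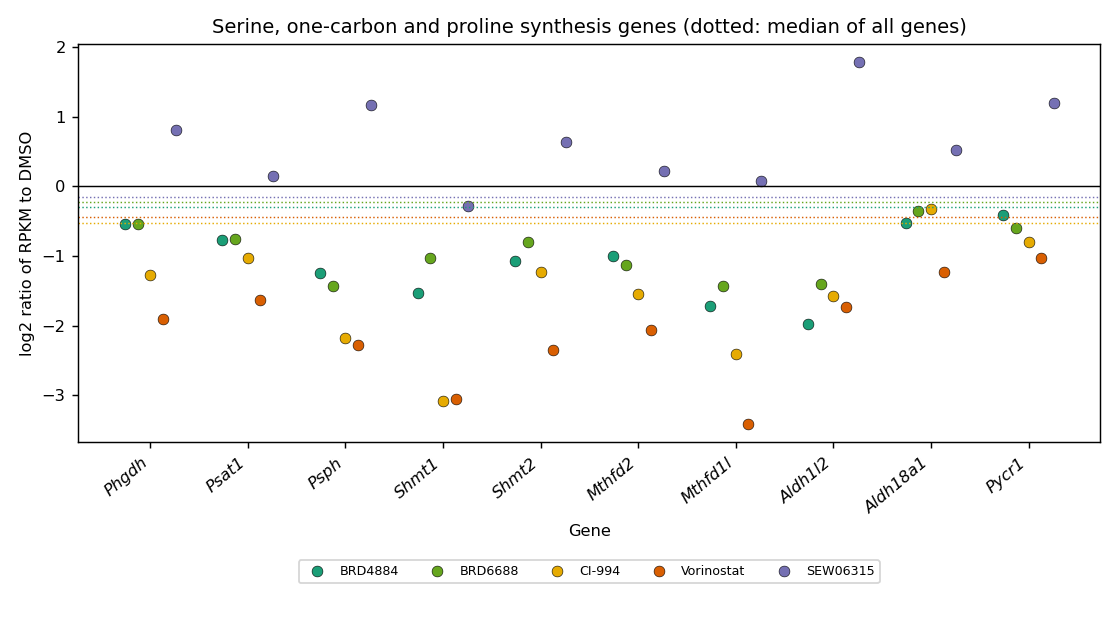
Log2 ratio of RPKM to DMSO (y axis) for Phgdh, Psat1 and the 8 further genes of serine, one-carbon and proline synthesis (x axis) with the 4 HDAC inhibitors and SEW06315 (colours). Dotted lines give the median of all genes above 5 RPKM for each compound. Points of the HDAC inhibitors reach -3.42 (Mthfd1l with Vorinostat), and those of SEW06315 reach 1.79 (Aldh1l2).

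Ddit3 and Atf3 parted from the other genes with some of these inhibitors. Atf3 had 6.65, 4.56 and 5.45 junction RPM in DMSO, 19.7 and 17.8 with CI-994 and 15.9 and 16.4 with Vorinostat, log2 changes of 1.68 ± 0.16 and 1.47 ± 0.16 (limma adjusted p = 2.66e-07 and 1.04e-06). It also rose with BRD4884 (10.8 and 10.2, a change of 0.87 ± 0.16) and did not pass with BRD6688 (7.23 and 6.26, a change of 0.27), unless DMSO A was left out (0.40). Ddit3 rose with Vorinostat, to 66.6 and 45.8 junction RPM, and with CI-994, to 37.9 and 38.0, against 24.2 to 28.4 in DMSO, and fell with BRD6688, to 14.7 and 14.8. In each of these 3 comparisons both treated libraries lay outside the DMSO range. By RPKM neither Ddit3 nor Atf3 was called higher with any HDAC inhibitor. By junction reads 43.8% of all genes rose with CI-994, 43.6% with Vorinostat and 42.7% with BRD4884. Trib3 and Slc7a11 fell with Vorinostat, BRD4884 and BRD6688. The call of Trib3 with CI-994 (-0.34) was lost without DMSO A, DMSO B or replicate B of CI-994, that of Asns with BRD4884 (-0.19) without either replicate of BRD4884, and that of Sesn2 with Vorinostat (-0.29) without DMSO A or replicate A of Vorinostat. The calls of Slc7a11 with BRD4884 (-0.58) and BRD6688 (-0.56) were lost without replicate A of the compound in question. Chac1 fell with those 3 as well (-0.37 to -0.93) but rose with CI-994, to 49.5 and 42.8 against 29.4 to 33.9 in DMSO (0.56 ± 0.11).

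Other lists were read against the share of all genes that fell, 33.1% with Vorinostat, 19% with BRD4884, 23.7% with BRD6688 and 34.1% with CI-994. Among 9 amino acid transporters 8 fell with Vorinostat, 7 with BRD4884, 7 with BRD6688 and 3 with CI-994, where 3 also rose, shares near those of all genes. The lowest by RPKM with Vorinostat were Slc6a9 (2.82 against 15.1) and Slc7a3 (10.3 against 36.5). Of 16 other targets of ATF4 and CHOP, 9 fell with Vorinostat and 7 with each of the other 3, while 2 or 3 rose. With CI-994 the share of these targets that fell was near that of all genes. With Vorinostat the farthest were Pck2 (5.80 against 31.2 RPKM), the mitochondrial form of phosphoenolpyruvate carboxykinase, and the transcription factor Atf5 (3.83 against 20.6). Of 17 genes of the other unfolded protein response arms, 16 rose with BRD4884 (42.7% of all genes), 13 with BRD6688 (39.4%), 12 with CI-994 (43.8%) and 10 with Vorinostat (43.6%) on the junction scale, while 1 fell with CI-994 and 4 with Vorinostat. By RPKM none of the 17 was past 2-fold with BRD4884 or BRD6688, and Ern1, the sensor IRE1, was past it with CI-994 (17.5 against 6.79) and Vorinostat (15.5), while Edem1 was past 2-fold lower with Vorinostat (10.6 against 23.1). Of 8 NRF2 targets 5 to 7 rose with each of the 4 by junction reads, where 39.4% to 43.8% of all genes did, and 1 fell with BRD4884. By RPKM none of these targets was past 2-fold with BRD4884 or BRD6688. With CI-994 Osgin1 was at 15.7 RPKM against 0.29 in DMSO, so by RPKM it could be called only upward.

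Markers of other cell types changed in the same libraries. The 4 fibroblast markers summed to 0.12 RPKM in DMSO, 1.49 to 13.4 with the HDAC inhibitors and 0.09 to 2.47 with the other compounds, mostly through Col1a1 (11.7 RPKM with CI-994). None of the 4 was at 0 in DMSO. The 3 immune markers summed to 0.64 RPKM in DMSO and 0.44 to 1.20 with the HDAC inhibitors, and the 3 glia markers to 2.22 and 2.19 to 5.45, with Aqp4 at 0 in DMSO. The 10 neuroblastoma and neuron markers summed to 1197 RPKM in DMSO, 1098 to 1269 with the HDAC inhibitors and 917 with SEW06315. The sum hides opposite moves. With Vorinostat, of the 7 above 5 RPKM, 1 was past 2-fold higher and 2 lower, where 10.4% and 22.5% of genes tested were. The part of these differences in the changes above was not tested. In bulk RNA, fewer cells of a type and less RNA per cell cannot be told apart.

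Chac1 and Ddit3 moved apart with a group of microexon inhibitors, a pattern picked out after their values were seen. Chac1 had 33.9, 29.4 and 29.9 junction RPM in DMSO, and it had 10.9 with AW00693, 13.03 with T5635931, 13.7 with T5985871 and 15.3 with T5758020. All 4 lay below the lowest DMSO library. The log2 changes were -1.46 ± 0.14, -1.22 ± 0.14, -1.15 ± 0.14 and -0.99 ± 0.14 in that order, with limma adjusted p of 8.63e-06 to 3.4e-04, and none of these 4 calls was lost under the alternatives tried. Of all genes 19% fell with AW00693, 12.1% with T5635931, 33.3% with T5985871 and 11.4% with T5758020, and the median of all genes was -0.13 with T5985871. By RPKM, Chac1 was 3.07-fold lower with AW00693, 2.34-fold with T5635931 and 2.22-fold with T5985871, where 2.57%, 1.78% and 8.41% of genes tested were lower.

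In the same libraries Ddit3 and Atf3 were higher, where 10.1% of all genes rose with AW00693, 7.05% with T5635931, 16.8% with T5985871 and 5.65% with T5758020. Ddit3 had 24.2 to 28.4 junction RPM in DMSO, 56.9 with T5985871 and 46.9 with T5758020, log2 changes of 1.07 ± 0.17 and 0.79 ± 0.17. The call with T5758020 was lost when only the intron with the most reads was used. With AW00693 (38.1) and T5635931 (38.5) the changes of 0.50 and 0.51 passed the limma test narrowly and lost their calls when any 1 of the DMSO libraries was left out. Atf3 had 4.56 to 6.65 in DMSO and 13.6 to 18.8 in these 4 libraries, log2 changes of 1.23 to 1.69. With T5985871, 6 of the 9 genes rose, Atf4 (0.49), Psat1 (0.41), Trib3 (0.54, lost without DMSO C) and Sesn2 (0.36, lost without DMSO B or DMSO C) beside Ddit3 and Atf3. By RPKM, T5985871 had Ddit3 at 62.6 (2.32-fold) and Atf3 at 11.4 (2.45-fold), where 6.05% of genes tested were past 2-fold higher, and T5758020 had Atf3 at 9.28 (2.01-fold), where 1.14% were. With JFD00822 Ddit3 was at 0.83 and Chac1 at -0.58 on the log2 scale (1.99% of all genes rose and 0.266% fell), but both calls were lost without any 1 of the DMSO libraries, and with T5963258 (0.962% rose) Ddit3 was at 0.82, a call likewise lost, while Chac1 did not pass (-0.42). The opposite signs were not seen with SEW06315, BTB12021 or A-443654, where both genes rose. They were not particular to microexon inhibitors. With the activator Vorinostat Ddit3 rose (1.03) and Chac1 fell (-0.37, a call lost with only the intron with the most reads). Of all genes 43.6% rose and 33.1% fell with Vorinostat. With the microexon inhibitors MK-1775, 5-azacytidine, ChemBridge 7678804 and SPB00858, Chac1 was at 0.24, 0.42, 0.26 and 0.19 and was not called.

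Chac1 also fell with Crenolanib, to 14.6 junction RPM (-1.06 ± 0.14), where Ddit3 was at 25.4 (-0.08) and 5 further genes fell (9.45% of all genes were lower): Atf4 (-0.49), Atf3 (-0.69, lost without DMSO A), Asns (-0.42), Psat1 (-0.63) and Slc7a11. By RPKM Chac1 was 2.09-fold lower with Crenolanib, where 2.46% of genes tested were. With NVP-AEW-541 6 of 9 genes fell, where 5.62% of all genes did: Trib3 (-0.94), Sesn2 (-0.73), Chac1 (-0.54), Atf4 (-0.47), Psat1 (-0.41) and Asns (-0.31). Trib3 was at 8.41 RPKM (2.09-fold lower), where 0.865% of genes tested were past 2-fold lower. Both compounds are compared with the same 3 DMSO libraries. When only the intron with the most reads was used, Asns and Atf3 lost their calls with Crenolanib, and Atf4, Psat1 and Asns with NVP-AEW-541.

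**Figure D4:**
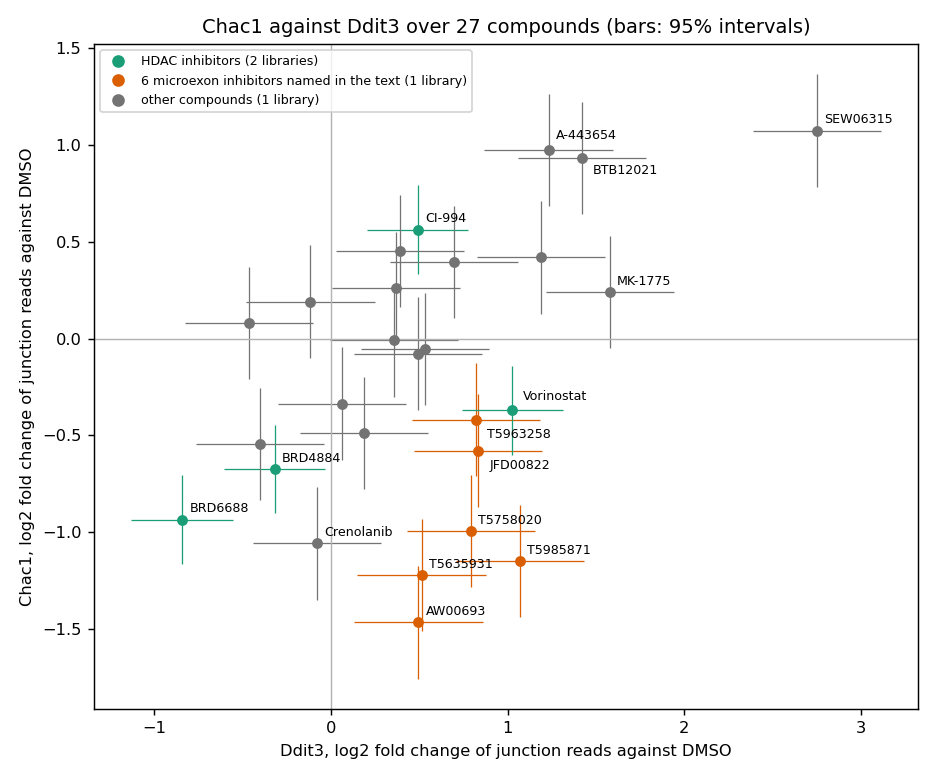
Log2 fold change against DMSO of Chac1 junction reads (y axis) against that of Ddit3 (x axis) for 27 compounds, with 95% intervals from the limma fit as bars. HDAC inhibitors are green, 6 microexon inhibitors orange and all others grey. SEW06315 lies at 2.75 and 1.07, while AW00693, T5635931, T5758020 and T5985871 lie right of 0 on the x axis and between -0.99 and -1.46 on the y axis.

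Slc7a11, which carries cystine into the cell for glutathione synthesis, rose with ChemBridge 7678804 while no other of the 9 genes did. It had 30.3 junction RPM against 8.64 to 11.6 in DMSO, a log2 change of 1.53 ± 0.19 (limma adjusted p = 2.99e-04), where 5.83% of all genes were higher. By RPKM it was at 13.5, 2.63-fold above DMSO, where 1.21% of genes tested were past 2-fold higher, and with T5963258 it was at 10.8 (2.12-fold), where 0.730% were. Of 8 NRF2 targets, genes of the antioxidant response, 8 rose with this compound. Hmox1, which breaks down heme, was at 362 RPKM against 94.6, and Srxn1, a sulfiredoxin, at 39.5 against 12.7. With BTB13120, Slc7a11 had 22.2 junction RPM (1.10 ± 0.19) beside Sesn2 (0.58) and Atf3 (0.63, lost without DMSO B or DMSO C), where 14.6% of all genes rose, while Ddit3 was at 19.3, under the lowest DMSO library. Among the single-library compounds Slc7a11 had its lowest junction RPM with Crenolanib, at 4.44 (-1.10 ± 0.19), and GNF-5837, at 4.99 (-0.95 ± 0.19). With GNF-5837, 4 of 9 genes fell (15.9% of all genes) and Sesn2 rose (0.55, 24.3% of all genes).

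Over the 23 single-library compounds the direction of the calls differed between the genes. Ddit3 rose with 13 and fell with none. That count was 7 when any 1 of the DMSO libraries was left out (with 1 fall without DMSO C) and 5 when 1 intron was used. Atf3 rose with 11 and fell with 1, Sesn2 with 8 and 1, Slc7a11 with 7 and 2, and Trib3 with 6 and 1. With 1 intron the rises of Atf3, Sesn2 and Trib3 numbered 7, 3 and 3. Psat1 rose with 1 and fell with 7 (3 with 1 intron), and Asns rose with 1 and fell with 4 (1 with 1 intron). Chac1 rose with 3 and fell with 8, or 6 when any 1 of the DMSO libraries was left out. Atf4 rose with 5 and fell with 3. These counts also depend on the HDAC inhibitor libraries, which enter them only through the spread. In all, 55 of 207 pairs were higher and 27 lower, and the share of all genes called per compound ran from 0% to 24.3% higher and from 0% to 33.3% lower. These comparisons share their 3 DMSO libraries, so a DMSO level that is off by chance would enter all of them.

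Of the compounds given at equal doses, 2 pairs were chosen for a direct comparison, with p adjusted over all genes and then over the 2 pairs. BRD4884 and BRD6688, both described as inhibitors of HDAC1, 2 and 3 that are kinetically selective for HDAC2 and both given at 10 µM, differed in 4 of 9 genes. Atf4 was higher with BRD4884, by 0.37 on the log2 scale (95% interval 0.18 to 0.56, adjusted p = 0.021 by limma), as were Atf3 (0.60, 0.24 to 0.97), Ddit3 (0.52, 0.21 to 0.84) and Asns (0.24, 0.09 to 0.39). Of all genes, 20.9% were higher with BRD4884 and 10.5% lower. Trib3 (0.36, 0.01 to 0.70), Chac1 (0.26, 0.01 to 0.51), Psat1 (0.10, -0.04 to 0.25), Sesn2 (-0.07, -0.29 to 0.15) and Slc7a11 (-0.02, -0.38 to 0.34) did not pass. RDR00572 and RH01954, screening compounds given at 2.5 µM with 1 library each, differed in none of the 9 genes, as in none of the 11637. The intervals were widest for Atf3 (-0.59 to 0.45), and those of Atf4 (0.16 to 0.71) and Chac1 (0.11 to 0.82) did not include 0 before adjustment (adjusted p = 0.653 and 0.913 by limma).

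Few splicing events of these genes changed, as was so over all genes. PSI, the percentage of transcripts that include an exon or keep an intron, could be given for 34 exons and 49 introns of 9 of the genes. Over 876 pairs of an exon and a compound, 2 rose and 2 fell by 10 PSI or more on the mean, and over 1217 pairs of an intron and a compound none did. Over all events with 5-azacytidine, 0.391% of exons rose and 1.03% fell, and 0.573% of introns rose and 0.149% fell. With CI-994 the shares were 1.18% and 0.524% of exons and 0.759% and 0.277% of introns. Few changes are thus not particular to these genes. Intron retention stayed at or below 6.67 PSI with every compound, Chac1 with the compounds that lowered it included (2.05 PSI at most).

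Of the 4 exon changes 3 were in a single exon of Ddit3. This exon of 48 nt lies at chr10:126730768-126730815 in the mm9 coordinates of the splicing table, and GENCODE annotates an exon of this length in Ddit3 as UTR. Its PSI was 84.7, 81.6 and 82.3 in DMSO A, B and C (95% Wilson intervals 82.3 to 86.8, 78.9 to 83.9 and 78.3 to 85.5, from 977, 926 and 433 reads, counting error only). It was 93.3 with SEW06315 (92.4 to 94.1, 3638 reads) and 93.6 with A-443654 (92.3 to 94.7), where 0.536% and 0.723% of exons rose by 10 PSI or more. With T5963258 (91.9) and BTB12021 (91.8) it was also above all DMSO libraries. It was 70.0 with T5985871 (67.4 to 72.4, 1292 reads), where 2.64% of exons fell by 10 or more. So 2 compounds that both raised Ddit3 mRNA, SEW06315 and T5985871, lay at opposite ends for this exon. The 4th change was an exon of Slc7a11 with Trametinib (79.1 PSI against 92.2 to 97.3 in DMSO), where 0.355% of exons fell by 10 or more. No test between conditions was made for PSI.

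**Figure D5:**
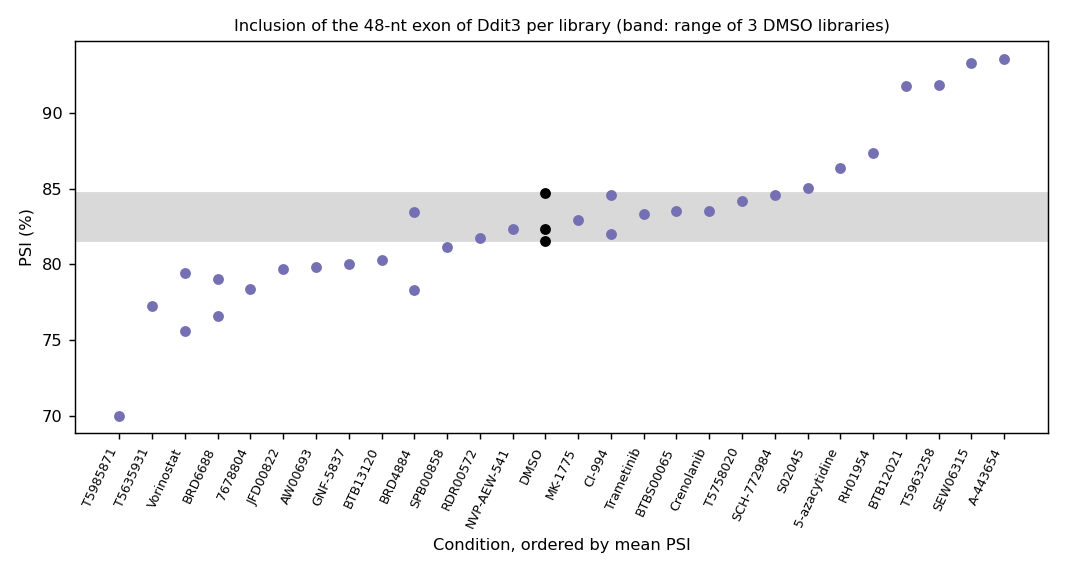
PSI of the 48-nt exon of Ddit3 (y axis, percent, not starting at 0) in each library, with conditions ordered by their mean PSI (x axis) and the range of the 3 DMSO libraries, 81.6 to 84.7, as a grey band. T5985871 is lowest at 70.0, and A-443654 and SEW06315 are highest at 93.6 and 93.3.

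The genes also differed in which other transcripts they resembled across the 28 conditions. As a description over merged RPKM values that share their libraries, Pearson's r of log2 RPKM was highest among 11477 genes with Psph for Atf4 (0.94), Nars, an asparaginyl-tRNA synthetase, for Asns (0.95), Shmt2, the mitochondrial serine hydroxymethyltransferase, for Phgdh (0.95), Ybx3 for Psat1 (0.97) and the transporter Slc1a4 for Chac1 (0.89). Ddit3 (0.84) and Sesn2 (0.87) were most like Trib3, Slc7a11 most like Slc7a3 (0.89), and Atf3 most like Arid5a (0.89). Within the 10 genes r ran from 0.02 (Atf3 with Chac1) to 0.94 (Atf4 with Asns). Atf4 was also close to Psat1 (0.92) and Trib3 (0.91), and less so to Ddit3 (0.68), Chac1 (0.46) and Atf3 (0.39).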

How the data were processed

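The authors made the deposited RPKM values from Salmon estimates (0.10.2 in the submitters' processing notes) on GENCODE transcripts, then gathered by gene, 1 value per condition after merging its replicates. The deposited percent spliced in (PSI, percent) and the deposited quality strings, which hold whole junction reads per event and library, came from the authors' use of vast-tools on mm9. Libraries were made without strand information, so reads of overlapping antisense genes cannot be told apart. The authors' fold changes and p-values against DMSO were not used, and 0 value columns were left without a condition.

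Reads over exon-exon junctions were summed over 160022 introns to 16846 genes, scaled to 1000000 reads (RPM), filtered at 1 or more in at least 2 libraries, and fitted as log2(value + 0.5) over all 34 libraries with limma 3.58.1 in R 4.3.3 (trended variance, 6 residual degrees of freedom). The design's junction test was kept on these values. The fit was first tested on simulated reads with known changes. PSI was kept for exons with a vast-tools coverage score of LOW or better and balanced junctions, and for introns backed by 15 or more reads whose balance p exceeded 0.05. Promoters came from RefSeq (GRCm38.p6), all 10 genes matched, and mm9 coordinates were never mixed with them. Compound names and doses came from the study's supplementary tables. The genes, the wider lists and the tests were chosen with earlier results of these data known. Named were all 10 genes, the compounds with 3 or more of them past 2-fold in 1 direction and the HDAC inhibitors, and per list the 2 largest RPKM differences past 2-fold for these compounds. Other compounds and list genes were named after their values were seen. Alternatives covered pseudocounts, filters, scaling, the intron used and leaving out libraries. Values of a few marker genes and the gene most like Trib3 are not reported here.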

Additional observations from a re-analysis of the deposited data

How the results depend on the processing

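The counts of RPKM differences past 2-fold, 15 higher and 18 lower, became 25 and 6 when ratios were centred on the median of all genes, since that median was below 0 for every compound, and stayed within 1.5 times under the other pseudocounts, filters and reference. Over the single-library compounds the 55 genes called higher and 27 called lower by junction reads became 30 and 17 when 1 intron per gene was used, and 43 to 49 and 23 to 24 without 1 DMSO library. Leaving out 1 HDAC inhibitor library, which was chosen after seeing the data and changes only the spread for these compounds, gave 50 to 79 and 24 to 40, with 79 and 40 without either Vorinostat library. Of the 82 calls, 74 held without each of the 8 HDAC inhibitor libraries. Of them 44 held under all settings tried and none changed sign. Of the 31 calls with HDAC inhibitors 25 held, and none changed sign. BRD6688 had 0 genes higher (an unadjusted p below 0.05 for none of the 9 in that direction), and 0 to 1 when 1 library was left out, the 1 being Atf3 without DMSO A. A group left with 1 library is assumed to vary like the others. The replicate letters did not pair the libraries (correlations of deviations -0.198 to 0.043). With the letter as a replicate block, Vorinostat had 2 genes higher and 7 lower, BRD6688 0 and 8, BRD4884 1 and 7 and CI-994 3 and 3, but with BRD4884 the call of Asns (-0.18) was lost and Ddit3 (-0.39) was called instead, the only 2 changes of call under the block. Slc7a11 and Atf3, with 109 to 413 junction reads per DMSO library, had the widest intervals.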
